A study of Danio rerio with 14 samples.

Results

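The genes described here encode the machinery that releases calcium from the sarcoplasmic reticulum of a muscle fibre and takes it back: the ryanodine receptors ryr1a, ryr1b and ryr3, the pumps atp2a1, atp2a2a and atp2a2b, and the calsequestrins casq1a, casq1b and casq2. They were chosen by gene symbol, and all 9 were found among the 31014 features of the deposited tables. When a fibre is excited, voltage sensors in the T-tubule open ryanodine receptors in the facing reticulum membrane, and the calcium that flows out starts contraction. Serca pumps then return it to the lumen, where calsequestrin binds it and holds it close to the release channels. Zebrafish keep duplicates of several of these genes, and skeletal muscle is known for using isoforms that differ between fast and slow fibres.

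RNA was measured in the lateral rectus (LR), an extraocular muscle that rotates the eye away from the nose, of adult zebrafish. All groups carried the genotype label actin:GFP, a reporter that an alpha-actin promoter drives in muscle. The design had 4 libraries of uninjured muscle (CON, labelled 0 hpi), 5 libraries at 9 h post injury (hpi; H9) and 5 at 18 hpi (H18), and LR tissue was cut out of frozen sections by laser microdissection and pooled over slides before RNA isolation. Each library pooled the tissue of many fish. In H9 and H18, part of the right LR had been excised and the residual muscle was collected. The values are FPKM, read counts scaled by transcript length and, between libraries, by upper-quartile normalization. CuffDiff had combined them into 1 value for each group. No SD, n or test between libraries is given for any value below. The authors' own p-values and q-values were not used. Read depth per library is not known from the values used, and differences between groups were not set against the spread between libraries. A value was counted as past the limit when it differed by at least 1.5-fold between groups on the scale of log2 of FPKM plus 0.1, which understates the difference of genes with low values. That limit was applied to the 13447 features with a mean of at least 1 FPKM over the 3 groups, of which 8 were members. Only ryr3 stayed out, with a mean of 0.936 FPKM, and its values are given without being counted.

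Of the 8 members past the filter, 7 were at least 1.5-fold lower in H9 than in CON, and atp2a2b alone was higher. Over all features past the filter, 31.4% were lower in this comparison and 34.9% higher, or 66.4% in either direction. The same 7 were lower in H18 than in CON and atp2a2b was again higher, against 34.7% of all features lower, 32.8% higher and 67.5% in either direction. The 8 members had a median log2 fold change of -2.65 at 9 hpi and -3.28 at 18 hpi relative to CON, beside medians of 0.09 and -0.01 over all features. Both comparisons share the CON libraries. In bulk tissue, fewer fibres and less RNA per fibre cannot be told apart. Between H9 and H18, 6 of the 8 were lower and none was higher, against 24.7% and 15.5% of all features (40.2% in either direction), with a median of -0.71 beside -0.15. That last comparison depended on scaling. Lower features made up 61.5% of those past the limit with the authors' scaling and 48.2% after centring on the median of all features. They made up 86.6% after scaling to the summed FPKM without the 3 most abundant features. Under these alternatives 3 and 8 members were past the limit, all lower, against 18.7% and 49.4% of all features lower. Summed over all 9 genes, H9 kept 10.8% of the CON level and H18 4.38%, but the sum is mostly atp2a1.

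**Figure D1:**
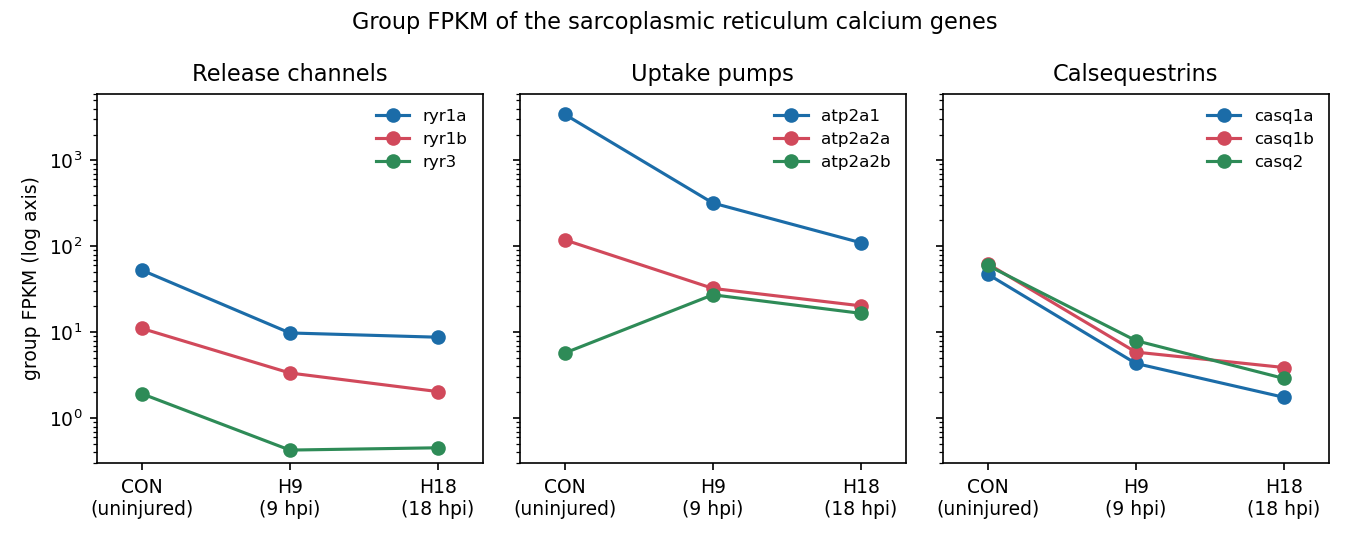
Group FPKM of each member on a log axis, in uninjured muscle (CON) and at 9 and 18 hpi, in 3 panels by role; each point is 1 pooled group value with no error attached. All lines but that of atp2a2b start highest in CON, and atp2a2b goes from 5.73 in CON to a peak of 27.3 at 9 hpi and 16.6 at 18 hpi.

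The level of the release channels differed widely among paralogs in uninjured muscle. The transcript of ryr1a (Entrez 798565, chromosome 10 of GRCz10, 33462959 to 33595949) had 52.9 FPKM in CON, then 9.82 in H9 and 8.76 in H18. In zebrafish embryos ryr1a is known mainly from slow muscle. Its level was 5.34-fold lower in H9 than in CON and 5.98-fold lower in H18, and H18 lay within the limit of H9, with a log2 fold change of -0.16. With the authors' scaling, almost all of the difference present at 18 hpi was thus already there at 9 hpi. After scaling to the summed FPKM without the 3 most abundant features, the log2 fold change between H9 and H18 was -0.61, past the limit.

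The paralog ryr1b (Entrez 570245, chromosome 18, 35516627 to 35755583), known for its role in fast muscle and as the gene mutated in the slow-swimming relatively relaxed fish, had 11.1 FPKM in CON and, after injury, 3.36 in H9 and 2.04 in H18. It was 3.24-fold lower in H9 than in CON, the smallest difference among the 7 lower members past the filter, and 5.24-fold lower in H18. With the authors' scaling it was, unlike ryr1a, also past the limit between H9 and H18, at 1.62-fold lower. This contrast depended on the scaling. After centring on the median of all features ryr1b was within the limit too (log2 fold change -0.55). After scaling to the summed FPKM without the 3 most abundant features both were past it (-0.61 for ryr1a and -1.12 for ryr1b). For ryr3 (Entrez 561350, chromosome 20, 29328633 to 29517828), a channel that in mammals lies beside the junction and is not gated directly by the voltage sensor, the levels were 1.93 FPKM in CON, 0.426 at 9 hpi and 0.453 at 18 hpi. The values after injury were close to each other, and they stood at 22.1% and 23.5% of CON.

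The ryr1a to ryr1b ratio, which does not depend on how the groups were scaled, was 4.76 in CON, against 2.92 in H9 and 4.30 in H18. In all groups ryr1a made up most of the summed release channel FPKM, with 80.2% in CON, then 72.2% in H9 and 77.9% in H18. The class sum was 65.9 FPKM in CON and, after injury, 13.6 in H9 and 11.3 in H18, so that 20.6% and 17.1% of the CON level was left. That was the largest remaining share of the 3 classes.

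The pumps held the most abundant member and the only one that was higher after injury. The fast-fibre pump atp2a1 (Entrez 260440, chromosome 3, 26014163 to 26023607), which encodes Serca1 and is mutated in the accordion fish whose muscle relaxes too slowly, had 3434 FPKM in CON, 319 at 9 hpi and 110 at 18 hpi. Its rank among all 31014 features went from 18 in uninjured muscle to 119 at 9 hpi and 223 at 18 hpi. It was 10.8-fold lower in H9 than in CON, 31.3-fold lower in H18 than in CON and 2.90-fold lower in H18 than in H9. At 9 hpi it kept 9.28% of its CON level, much like casq1a (9.14%) and casq1b (9.37%), whereas at 18 hpi it kept 3.19%, the lowest share of any member. A close copy, atp2a1l, named after its values were seen, had 870 FPKM in CON, against 124 in H9 and 45.1 in H18. The authors' counting with multi-read correction could split short reads between these copies, so their separate levels are less certain than their common direction.

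The other pump genes are both Serca2 genes, described in the annotation as cardiac muscle and slow twitch. The annotation terms of both include the endoplasmic reticulum beside the sarcoplasmic reticulum membrane, and those of atp2a1 include the membranes of both compartments. The levels of atp2a2a and atp2a2b went opposite ways. The transcript of atp2a2a (Entrez 393940, chromosome 8, 11649532 to 11707288), whose loss in zebrafish embryos impairs the heartbeat, had 119 FPKM in CON, then 32.4 in H9 and 20.3 in H18. This was 3.68-fold lower in H9 and 5.86-fold lower in H18 than in CON. By contrast, atp2a2b (Entrez 568265, chromosome 21, 17014313 to 17071847) had 5.73 FPKM in CON and, after injury, 27.3 in H9 and 16.6 in H18. It was 4.70-fold higher in H9 than in CON and 2.86-fold higher in H18, and H18 was 1.64-fold lower than H9. The highest level of atp2a2b was thus at 9 hpi, whereas atp2a2a and atp2a1 were highest in CON and lowest in H18.

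As a result, the makeup of the transcripts of the 3 member pumps differed between groups. The atp2a2a to atp2a2b ratio was 20.8 in CON, 1.18 at 9 hpi and 1.22 at 18 hpi. Of the summed FPKM of these 3 pumps, atp2a1 made up 96.5% in CON, against 84.2% in H9 and 74.8% in H18. This sum leaves out atp2a1l, which was above atp2a2a in every group (870, 124 and 45.1 FPKM in CON, H9 and H18). All shares would be smaller with atp2a1l included. The share of atp2a2b was 0.161% in CON, then 7.23% in H9 and 11.3% in H18, and that of atp2a2a was 3.36%, 8.56% and 13.8%. Even in H18, atp2a1 remained the most abundant pump, at 5.40 times the level of atp2a2a and 6.61 times that of atp2a2b. The sum of the 3 pumps was 3559 FPKM in CON and, after injury, 378 in H9 and 147 in H18.

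**Figure D2:**
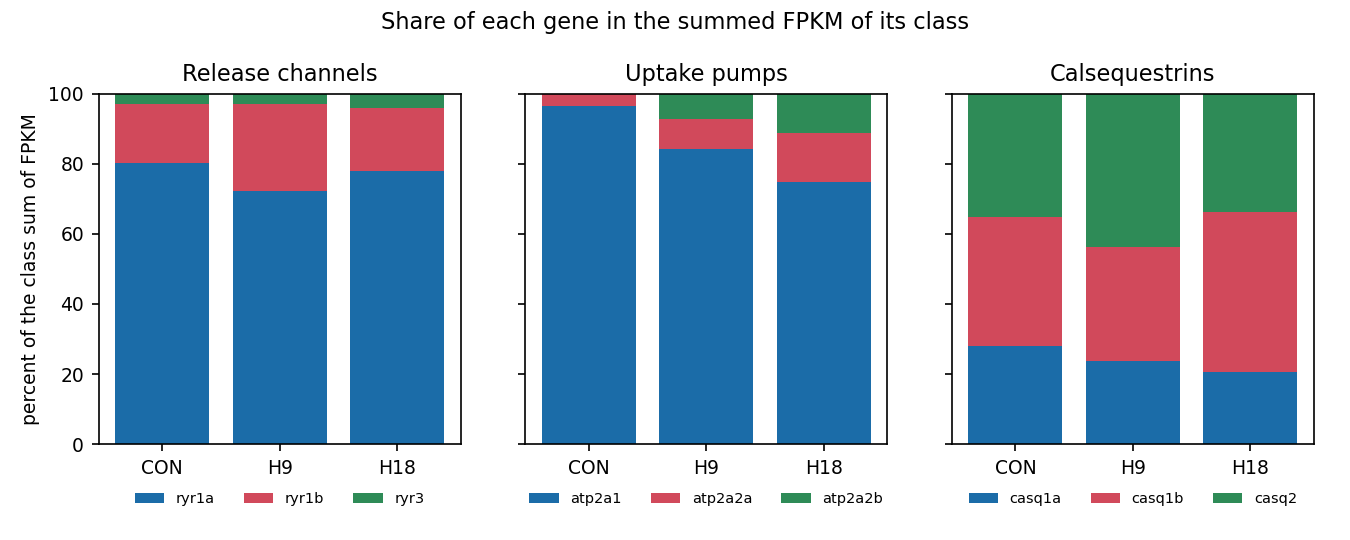
Share of each gene in the summed FPKM of its class, as stacked bars from 0 to 100% for CON, H9 and H18, with 1 panel for each class. The pump sum holds the members only and leaves out atp2a1l. The share of atp2a1 among the pumps goes from 96.5% in CON to 74.8% in H18, while ryr1a stays between 72.2% and 80.2% of the release channels.

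The calsequestrins were expressed at similar levels in uninjured muscle, and all 3 were far lower after injury. In skeletal muscle, Casq1 is the main calcium store protein of the reticulum lumen. The levels of casq1a (Entrez 445226, chromosome 2, 38057529 to 38072154) were 47.5 FPKM in CON, 4.34 at 9 hpi and 1.75 at 18 hpi. It was 10.7-fold lower in H9 and 25.7-fold lower in H18 than in CON, and 2.40-fold lower in H18 than in H9. For casq1b (Entrez 767757, chromosome 7, 73495850 to 73530672) the levels were 62.8, 5.88 and 3.89 FPKM, a 10.5-fold lower level in H9 and a 15.7-fold lower level in H18 than in CON. Its difference between H9 and H18 lay just inside the limit, with a log2 fold change of -0.58. The levels of casq2 (Entrez 114410, chromosome 9, 33286547 to 33296408), which in mammals is the form of the heart and of slow fibres, were 60.0, 8.0 and 2.90 FPKM. It was 7.42-fold lower in H9, 20.0-fold lower in H18 and 2.70-fold lower in H18 than in H9.

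No calsequestrin clearly dominated the class in any group. In CON, casq1b made up 36.9% of the class sum, casq2 35.2% and casq1a 27.9%. In H9 the largest share was that of casq2 (43.9%), and in H18 that of casq1b (45.6%). With no spread attached to the values, the order of the calsequestrins within a group cannot be read as a difference. The class sum was 170 FPKM in CON, against 18.2 in H9 and 8.54 in H18, or 10.7% and 5.02% of CON.

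As class sums, release channels were nearer to their CON level than pumps and calsequestrins, but the pump sum is mostly atp2a1. The pump atp2a2a kept 27.1% of its CON level at 9 hpi and 17% at 18 hpi, within the range of the release channels (18.6% to 30.2% and 16.6% to 23.5%), and atp2a2b was above its CON level. The ratio of summed calsequestrin to summed ryanodine receptor FPKM was 2.58 in CON, then 1.34 in H9 and 0.759 in H18. For pumps over ryanodine receptors it was 54.0 in CON and, after injury, 27.8 in H9 and 13 in H18. Pumps over calsequestrins gave 20.9 in CON, 20.8 at 9 hpi and 17.2 at 18 hpi, so these classes stayed nearly in proportion. Such ratios within a group are free of the scaling between groups.

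**Figure D3:**
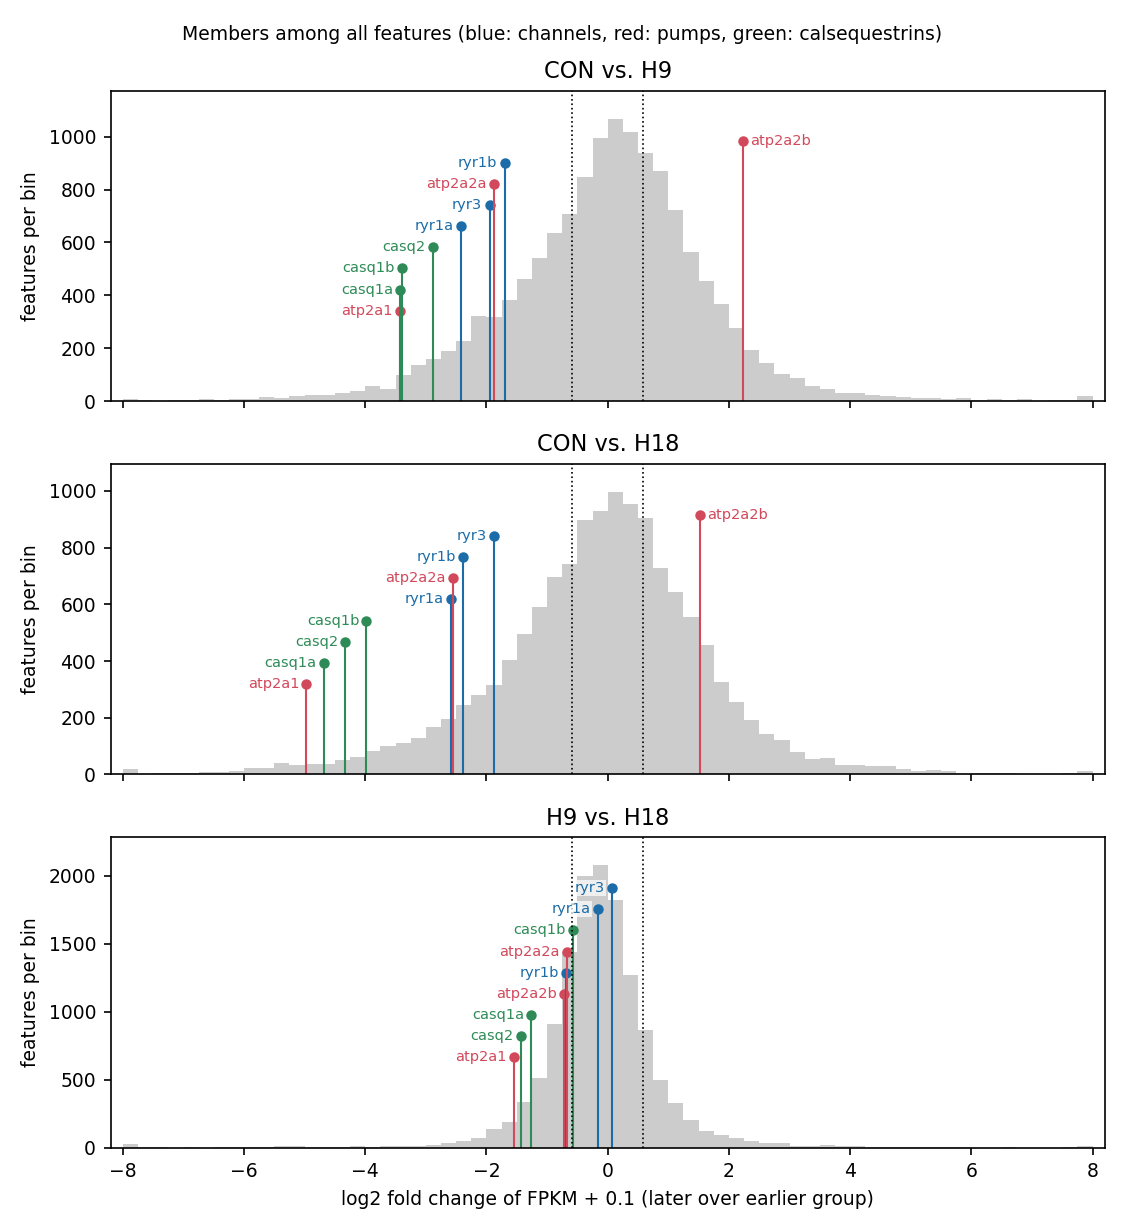
Log2 fold changes of FPKM plus 0.1 of the 9 members (stems, with heights chosen only to separate the labels) over the histogram of the 13447 features with a mean of at least 1 FPKM, for H9 against CON, H18 against CON and H18 against H9; features beyond 8 on either side are counted in the outermost bins, and dotted lines mark the 1.5-fold limit. In the comparisons with CON, the pump atp2a1 (-3.43 and -4.97) and the calsequestrins lie further out than the release channels, and atp2a2b (2.23 and 1.52) lies on the other side.

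By timing, most of the log2 difference seen at 18 hpi was in place at 9 hpi for each of the lower members. With the authors' scaling, the log2 fold change at 9 hpi was 93.7% of that at 18 hpi for ryr1a, 85.3% for casq1b, 73.7% for atp2a2a, 73.0% for casq1a, 71.0% for ryr1b, 69.0% for atp2a1 and 66.8% for casq2. For ryr3 it was 104%, since H18 was not below H9 with the authors' scaling (log2 fold change 0.07, and -0.29 after scaling to the summed FPKM without the 3 most abundant features). That second scaling lowered the share of each of the other lower members. Under it, the log2 fold changes at 9 and 18 hpi were -2.23 and -2.84 for ryr1a and -1.51 and -2.64 for ryr1b. For casq2 they were -2.70 and -4.58.

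In order of level, atp2a1 came first and atp2a2a second in every group. In CON, atp2a2a was followed by casq1b, casq2, ryr1a and casq1a, all between 47.5 and 62.8 FPKM, then ryr1b, atp2a2b and ryr3. In H9 and H18, atp2a2b came next and was followed by ryr1a, ahead of all calsequestrins, and ryr3 was last throughout. Which neighbours in this order differ beyond the spread between libraries was not tested.

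The 9 genes lie on 9 different chromosomes. The annotation in the authors' tables gives calcium ion transport and cellular calcium ion homeostasis for the release channels and pumps alike. Among the calsequestrins it gives calcium ion binding only, apart from terms for a cellular component.

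The markers of the tissue moved with the members. Muscle fibre transcripts, represented by 15 markers such as acta1b, ckma, ttna and myhz2, summed to 16054 FPKM in CON, against 2227 in H9 and 1347 in H18. The gene mylpfb was listed at 0 in CON and in H18 and had 0.515 FPKM in H9, and no other marker of this list was at 0. Of the 14 markers past the filter, 12 were lower at 9 hpi and none higher (median log2 fold change -2.83), and 12 were lower and 1 higher at 18 hpi (median -3.50). The exceptions were desma, with 146 FPKM in CON, then 138 in H9 and 191 in H18, and tnnt3a, which was at 1.29, 1.12 and 2.15 FPKM. Over all features, 31.4% were lower and 34.9% higher at 9 hpi, and 34.7% and 32.8% at 18 hpi. These shares also stand beside the counts of the other marker lists.

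Ratios to a muscle fibre marker depended on the marker. Of that list, skeletal alpha-actin, acta1b, was furthest below CON at 18 hpi. The atp2a1 to acta1b ratio was 2.16 in CON and, after injury, 2.54 in H9 and 1.91 in H18, and the casq1a to acta1b ratio was 0.0299, 0.0346 and 0.0304. For ryr1a over acta1b the ratio was 0.0332 in CON, 0.0783 at 9 hpi and 0.152 at 18 hpi. Other markers were less far below CON at 18 hpi, with 12.3-fold for actc1b, 13.9-fold for ckma and 2.52-fold for acta1a, against 27.6-fold for acta1b, 31.3-fold for atp2a1, 25.7-fold for casq1a and 5.98-fold for ryr1a.

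Slow-fibre markers were present in all groups. Their 8 genes summed to 287 FPKM in CON, against 50.8 in H9 and 82.1 in H18. Most of each sum was tnnc1b, with 210, 30.8 and 59.2 FPKM. Of the 7 past the filter, 5 were lower in H9 and 6 in H18 than in CON, with none higher in either. Between H9 and H18, 3 of the 7 were lower and 2 higher, against 24.7% and 15.5% of all features. None of the 8 was listed at 0.

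Markers of other cells also moved with the groups. All 12 leukocyte markers were above 0 in every group, and they summed to 311 FPKM in CON, then 356 in H9 and 329 in H18. At 9 hpi, 9 of them were higher than in CON and 2 lower, and at 18 hpi 10 were higher and 2 lower, with median log2 fold changes of 1.78 and 1.87. The lower ones were cd74a and cd74b, which make up most of the CON sum. The 4 endothelial markers summed to 22.7, 35.3 and 17.2 FPKM, the 7 fibroblast markers to 131, 97.4 and 107, and the 3 erythrocyte markers found to 203, 197 and 142. Glial (191, 60.4 and 37.9 FPKM over 5 genes) and epidermal markers (56.6, 31.4 and 17 over 5) had their highest sums in CON, none of them at 0. The 7 retinal markers summed to 44.2, 9.42 and 1.75 FPKM, with 4 of them listed at 0 in H18 and opn1mw1 at 0 in H9. The part of these cells in the level of atp2a2b, and of any other member, was not tested.

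The genes that work with the members were taken from 4 lists. Of their 65 features, 50 passed the filter. Relative to CON, 30 of these were lower and 9 higher at 9 hpi (median log2 fold change -1.38), and 31 were lower and 7 higher at 18 hpi (median -1.48). Between H9 and H18, 10 were lower and 5 higher (median -0.10, beside -0.15 over all features). Of all features past the filter, 31.4% were lower and 34.9% higher at 9 hpi, and 34.7% and 32.8% at 18 hpi. Between H9 and H18, 24.7% of all features were lower and 15.5% higher, both larger shares than among the partner genes. The shares of all features also stand beside the counts of each partner list below.

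Coupling at the triad, where the T-tubule meets the reticulum, was represented by 12 features past the filter, of which 10 were lower in H9 and 11 in H18, with none higher in either comparison. The voltage sensor cacna1sa, the subunit that opens ryanodine receptors, had 35.6 FPKM in CON and, after injury, 4.16 in H9 and 4.02 in H18. Its auxiliary subunit cacna2d1a had 23.7, 6.62 and 3.07 FPKM. The adaptor stac3, needed for coupling, was at 18.3, 1.89 and 4.33 FPKM, lowest in H9 and 2.23-fold higher in H18 than in H9. The junctophilins, which tie the membranes together, gave 43.4, 7.62 and 6.16 FPKM for jph2 and 20.3, 4.53 and 3.38 FPKM for jph1b. For bin1b, which shapes T-tubules, the levels were 24.3, 7.85 and 8.43 FPKM. Only jph1a, with 3.28, 4.36 and 4.40 FPKM, was within the limit in both comparisons with CON.

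Other reticulum proteins that bind or tune the members were split. Of 16 features past the filter, 10 were lower and 3 higher in H9, and 9 were lower and 1 higher in H18. Sarcolipin, sln, a small inhibitor of the Serca pump, had 51.2 FPKM in CON, 5.40 at 9 hpi and 1.13 at 18 hpi, which is 9.32-fold lower in H9 and 41.7-fold lower in H18. The cation channel tmem38a, which balances charge during calcium release, had 108, 10.4 and 4.41 FPKM, and sarcalumenin, srl, a luminal calcium-binding protein, 182, 44.4 and 27.4. One of the 2 features named asph, a locus that also encodes junctin, had 23.8, 5.36 and 6.06 FPKM. The other asph feature had 3.32, 2.85 and 2.80 FPKM, within the limit in each comparison.

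Not all of these genes were lower. The immunophilin fkbp1aa, whose mammalian counterpart binds ryanodine receptors, had 59.3 FPKM in CON, against 42.6 in H9 and 59.6 in H18, within the limit in each comparison. Its paralog fkbp1ab had 7.62, 12.4 and 9.34 FPKM and sorcin, sri, 9.66, 17.8 and 12.1, both past the limit in H9 but not in H18. The gene sypl2b, named after its values were seen, was higher in both, with 3.91, 8.19 and 6.88 FPKM.

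The list of other calcium stores mixed channels and pumps with chaperones and folding enzymes of the endoplasmic reticulum. Of its 9 features past the filter, 5 were higher and 2 lower in each comparison with CON, with median log2 fold changes of 1.0 and 1.54. Apart from itpr2, the higher ones were chaperones or folding enzymes. The lower ones were itpr3, an inositol trisphosphate receptor, with 2.37, 0.962 and 0.587 FPKM, and LOC101884734, described as similar to ryr3, with 9.95 and 2.43 FPKM in CON and H9 and listed at 0 in H18. The locus of LOC101884734 spans only 12 bases, which makes its FPKM hard to interpret. The higher ones included itpr2, with 1.74, 4.19 and 5.25 FPKM. The calreticulin genes calr and calr3b, luminal calcium binders and chaperones, had 12.8, 33.0 and 57.3 FPKM and 7.28, 29.8 and 41.6 FPKM. Calnexin, canx, a membrane chaperone, had 6.82, 36.5 and 46.5 FPKM, and pdia3, a disulfide isomerase that works with both, had 31.2, 62.6 and 127. With the authors' scaling these 4 genes were highest in H18, whereas atp2a2b was highest in H9. Between H9 and H18, however, calr3b and canx were within the limit (log2 fold changes 0.48 and 0.35), and this comparison depended on scaling. The pump gene atp2a3, whose mammalian counterpart encodes Serca3, was low in every group, with 1.89, 1.74 and 1.60 FPKM. Both atp2a3 and the pump gene atp2c1, with 2.60, 3.84 and 3.81 FPKM, were within the limit in each comparison.

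Genes for calcium entry, exit and mitochondrial uptake had 13 features past the filter, of which 8 were lower and 1 higher in H9, and 9 lower and 1 higher in H18. The uniporter mcu, which takes calcium into mitochondria, had 31.5, 8.57 and 7.29 FPKM. The store sensor stim1a, which signals when the reticulum is empty, had 23.3, 15.9 and 9.65 FPKM and its paralog stim1b 13.5, 4.17 and 3.82. For orai2, a store-operated entry channel, the levels were 17.8, 6.56 and 9.57 FPKM. The plasma membrane pump atp2b1a had 11.5, 7.33 and 6.58 FPKM, and atp2b4 was the only one higher, with 9.02, 16.4 and 15.1.

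**Figure D4:**
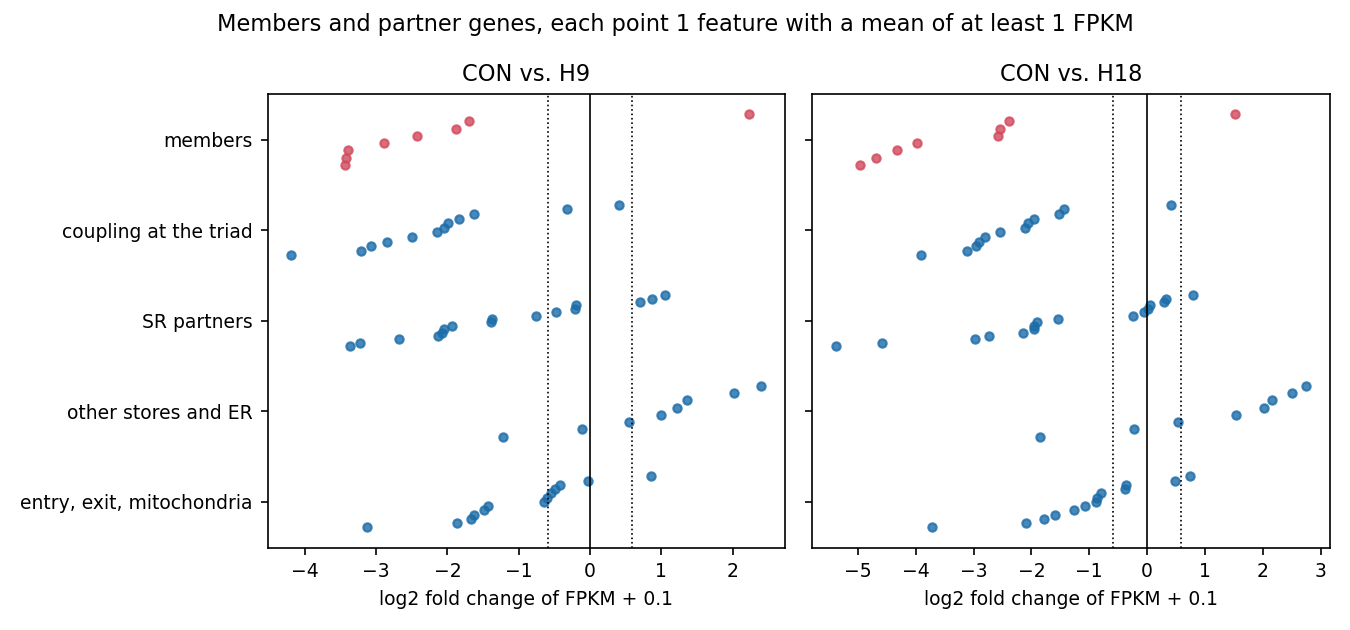
Log2 fold changes of FPKM plus 0.1 relative to CON, at 9 hpi and at 18 hpi, for the 8 members past the filter (top row) and the features of the 4 partner lists with a mean of at least 1 FPKM, without 1 feature listed at 0 in H18; dotted lines mark the 1.5-fold limit, and vertical position only separates the points. Of the 12 triad genes, 10 lie past the limit on the lower side at 9 hpi and 11 at 18 hpi. Past the limit on the higher side with atp2a2b lie 5 genes of the other stores. Of the reticulum partners, 3 lie there at 9 hpi and 1 at 18 hpi, and atp2b4 lies there at both times.

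The genes outside these lists whose pair of log2 fold changes relative to CON lay nearest to the median pair of the members were fam13b, dnajb6b, rbm24b, psd3l and tpm1, among 2099 candidates with a mean of at least 10 FPKM. Likeness was the distance over these 2 values, from 3 group levels, and was between 0.0865 and 0.148 for the 5 genes. The most abundant of them, the tropomyosin gene tpm1, had 821 FPKM in CON, then 143 in H9 and 88.5 in H18.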

How the data were processed

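The authors aligned reads to GRCz10 with TopHat 2.0.13 and Bowtie 2.2.1 and ran CuffDiff 2.2.1 with multi-read correction, compatible-hits and upper-quartile normalization. The FPKM were deposited by the authors as 1 pooled value for each group and feature. Their tables also hold fold changes, p-values, q-values and calls of the authors' own comparisons, which were not used. A count table with 14 columns was not used, because no column name matched a label. The planned count tests were therefore not run, and the fold limit planned for that case replaced them.

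Log2 fold changes were computed with a pseudocount of 0.1 FPKM, and features with a mean of at least 1 FPKM over the 3 groups were compared at 1.5-fold. The fold calculation was checked on values with planted fold changes and no noise, which tests the arithmetic only. Members and lists were chosen with earlier results of these data known. All members are named, as are partner genes with at least 10 FPKM in a group and the 5 genes nearest in pattern, except 1 partner gene that is not reported here. Other genes named are exceptions, paralogs, regulators or markers picked after their values were seen. Start positions are counted from 1, and chromosomes were assigned through Entrez identifiers shared with the GRCz12tu gene table. Member values were the same in every table that gave them. Sequences were not analysed here. Software was matplotlib 3.10.9, numpy 2.4.6, pandas 2.3.3 and Python 3.11.15.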

Additional observations from a re-analysis of the deposited data

How the results depend on the processing

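No paired analysis was possible because each group has 1 pooled value and no column of the count table could be given a library. For the same reason no library could be left out. The planned count test with edgeR and its low count filter were not run, nor was DESeq2 or a fit with a replicate block. Against CON, at 9 hpi and at 18 hpi, the direction and the side of the limit of each member were kept with pseudocounts of 1 and 0.01, a limit of 2-fold, no filter, centring on the median of all features, and scaling to the summed FPKM without the 3 most abundant features, which hold 76.4% to 82.9% of the sum. Between H9 and H18, where 6 members were past the limit, 3 were at a limit of 2-fold and 3 after centring. With pseudocounts of 1 and 0.01, 5 and 7 were. Of all features, 24.7% were lower with the main settings and 18.7% after centring. That share was not computed for the 2-fold limit or the other pseudocounts. The H9 vs. H18 comparison depends most on scaling: the last scaling puts the median of all features at -0.58, with 49.4% of them lower, and all 8 members past the limit. It also moves the lower share of the features past the limit from 61.5% to 86.6%, against 48.2% with centring. In the H9 vs. H18 comparison the members whose side of the limit was not kept under some setting were ryr1a, ryr1b, atp2a2a, atp2a2b and casq1b, none of which turned its sign. The sign of ryr3, within the limit throughout, turned from 0.07 to -0.29 with the last scaling.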

Other observations

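The tables held 8 further features described as ryanodine receptors, named after their values were seen. The 5 described as ryr2, the type of the mammalian heart, were at or under 0.820 FPKM in each group. The others were described as similar to ryr3, and of these LOC101884734, listed at 0 in H18, has a locus of only 12 bases in the table, which makes its FPKM hard to interpret. The gene LOC553296, described as the histidine-rich calcium-binding protein of the sarcoplasmic reticulum, had 13.7 FPKM in CON, 3.40 at 9 hpi and 1.67 at 18 hpi.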
